A study of Mus musculus with 16 samples.

Results

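Photoreceptor ribbon synapse genes were examined in retinas of mice flown aboard the International Space Station and of ground control mice. The members were 10 genes, taken by symbol from the deposited table of 25905 genes. They were Bsn, Pclo, Ctbp2, Rims1 and Rims2 of the ribbon and active zone, Cacna1f, Cacna2d4 and Cacnb2 of the Cav1.4 calcium channel, and the regulators Cabp4 and Unc119. All 10 were found in the table, and 9 of them had a value above 0. The study sequenced 16 libraries of total RNA, 8 labelled space flight and 8 labelled ground control. All mice were wild type C57BL/6 males, 10 weeks old by the labels, and the ground control mice were kept in the same housing hardware on Earth. The paper gives this age for the mice that were flown, and their retinas were taken after the flight, at a later age. Each library came from the retina of a right eye, dissected in the flown animals after their live return to Earth.

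Each gene is described by its mean normalized count, the authors' average of the size-factor-scaled counts of all 16 libraries. It pools spaceflight and ground control retinas. Counts of single libraries stand under laboratory codes in the deposited tables, and as no label ties a code to a mouse or a group, they were not used. For this reason no value per mouse and no difference between spaceflight and ground control is given. The planned comparison of the groups could not be run. A spread over all 16 libraries, with both groups mixed, would need no such label, but it was not computed. The precision of a mean normalized count was thus not estimated here, and an order of levels is a description without a test. The mean normalized counts summed to 6995810 over all genes, of which the 10 members made up 0.417%.

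Rods and cones release glutamate continuously in darkness and lower the release in light. Their terminals hold synaptic ribbons, plate-like structures that tether vesicles beside the release site, and bipolar cells use ribbons too. The ribbon is anchored at an active zone built of large scaffold proteins, where L-type calcium channels of the Cav1.4 kind open with the dark potential and drive release. Mutations in genes of this machinery are known causes of night blindness and cone dysfunction. The measurements are of whole retina, so that fewer cells of a type and less RNA per cell cannot be told apart, and reads from rods, cones and other neurons are summed.

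The tissue label was checked against marker genes. Gnat1, the rod transducin subunit, had a mean normalized count of 154477, and Pde6b, a subunit of the rod phosphodiesterase, of 13374. The 5 cone markers ran from 537 for Pde6h to 2800 for Opn1sw. The bipolar markers Prkca and Grm6 were at 4239 and 964. The ganglion cell markers with 1 row ran from 461 for Pou4f1 to 1730 for Thy1, and the horizontal cell markers Lhx1 and Onecut1 were at 47.7 and 91.6. Markers of neighbouring tissue were also present. Those of the pigment epithelium ran from 2.72 for Best1 to 540 for Ttr, and those of the lens from 161 for Crygs to 898 for Cryaa. The highest of them exceeded the lowest cone and inner retinal markers, and all were below the rod markers with 1 row, the lowest of which was Nr2e3 at 3390.

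The count table has a row for each RefSeq transcript, and the number of such rows differed between members. A single row was present for 7 members, Bsn, Rims2, Cacna1f, Cacna2d4, Cacnb2, Cabp4 and Unc119. Pclo and Ctbp2 had 2 rows each. Rims1 had 5 rows, and the same 5 accessions were listed again under the symbol Rims1-2. How transcript rows were joined into the value of a gene is not given in the sources used here.

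The number of rows moved with the level over the whole table. Among genes with a curated mRNA accession, the 16959 genes with 1 row had a median mean normalized count of 52.2. The 2159 genes with 2 rows had a median of 1.58, the 634 genes with 3 rows 1.80, and the 373 genes with 4 or more rows 0.927. A mean normalized count of at least 100 was reached by 42.9% of the genes with 1 row and by 9.89% of the 3166 genes with 2 or more rows. The curves of the classes with several rows lay close to each other and well to the left of the class with 1 row. Pclo and Ctbp2 were thus high within their class, above 94.9% and 99.3% of the genes with 2 or more rows.

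**Figure D1:**
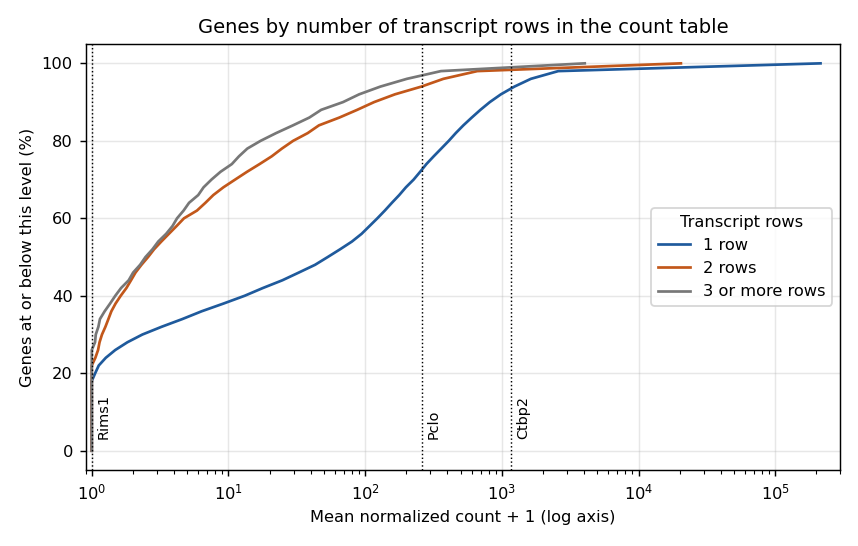
Share of genes (vertical axis, percent) at or below a mean normalized count (horizontal axis, 1 added, log scale), for genes with 1, 2 and 3 or more transcript rows. Dotted lines mark Rims1, Pclo and Ctbp2, the members with several rows; the median of the genes with 1 row was 52.2 and that of the genes with 2 rows 1.58.

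Levels also followed how much exon sequence the rows of a gene do not share. For 1774 genes with 2 rows, the lengths of both transcripts were known from the GENCODE M21 annotation, and the bases present in only 1 of the 2 transcripts were counted. The genes were divided into 5 classes of near-equal size by this length. In the class with the least such sequence, with a median of 96.0 bases, the median mean normalized count was 0.175. In the middle class, with a median of 606 bases, it was 2.09. In the class with the most, with a median of 4052 bases, it was 34.6. Pclo fell in this last class and was above 74.9% of its genes. Ctbp2 fell in the class before it and was above 99.2% of the genes there. Spearman's rank correlation across these genes was 0.50, given as a description, since genes of 1 set of libraries are not replicates and share depth and annotation. The counts of these classes were not divided by transcript length, and the part of transcript length in the rise was not tested. Whether reads in shared exons were lost in the counting was not tested either.

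**Figure D2:**
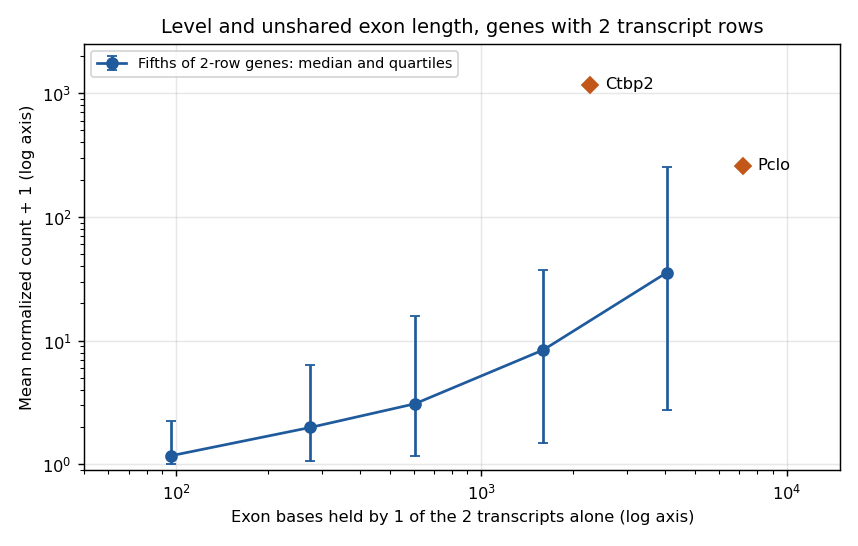
Mean normalized count (vertical axis, 1 added, log scale) against the exon bases held by only 1 of the 2 transcripts (horizontal axis, log scale), for genes with 2 transcript rows. Circles and bars give the median and the quartiles in each of the 5 classes, rising from 0.175 to 34.6, and diamonds give Ctbp2 at 1171 and Pclo at 259.

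Some of the sequences in which the rows of a member differ are shown, taken from the parts that 1 counted transcript holds alone. For Rims1, a scaffold that links vesicles and calcium channels at active zones, the 5 transcripts together cover 6.46 kb of exon sequence, and the only part held by a single transcript is a stretch of 84 bases. It is all coding and belongs to NM_053270.1. It lies at chr1:22412211-22412294 on the minus strand of GRCm38.

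Rims1, NM_053270.1 alone: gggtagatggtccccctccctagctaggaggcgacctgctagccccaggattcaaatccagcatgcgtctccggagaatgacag

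Ctbp2 encodes 2 proteins, the corepressor CtBP2 and RIBEYE, the main structural protein of the ribbon, whose amino-terminal part is specific to ribbons. The longer transcript, NM_001170744.1, has 988 codons and the shorter, NM_009980.4, has 445. The longest stretch that belongs to the longer transcript alone has 1731 bases, of which 1687 are coding, and it includes the start codon. Its first 300 coding bases lie at chr7:133014905-133015204 on the minus strand of GRCm38, with the start codon in capitals.

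Ctbp2, NM_001170744.1 alone: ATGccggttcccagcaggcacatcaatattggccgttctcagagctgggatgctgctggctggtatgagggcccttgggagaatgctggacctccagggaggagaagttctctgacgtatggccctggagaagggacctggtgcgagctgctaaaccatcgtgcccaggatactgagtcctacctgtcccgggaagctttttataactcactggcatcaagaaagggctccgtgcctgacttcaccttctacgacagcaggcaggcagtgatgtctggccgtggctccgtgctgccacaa

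Pclo encodes Piccolo, a very large scaffold of the active zone. Its transcripts NM_011995.4 and NM_001110796.1 have 5068 and 4863 codons and differ towards their 3′ ends. The first stretch that belongs to NM_011995.4 alone has 142 bases, all coding, at chr5:14811610-14811751 on the plus strand of GRCm38.

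Pclo, NM_011995.4 alone: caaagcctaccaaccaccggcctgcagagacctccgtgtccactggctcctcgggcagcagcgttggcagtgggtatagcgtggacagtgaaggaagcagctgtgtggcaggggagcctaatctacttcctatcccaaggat

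Bases held by exactly 1 counted transcript made up 1.30% of the exon sequence of Rims1, 32.5% of that of Pclo and 55.3% of that of Ctbp2. In length they came to 0.084 kb, 7.17 kb and 2.27 kb. Rims1 was listed at 0, Pclo had a mean normalized count of 259 and Ctbp2 of 1171, so that Pclo, with more such bases than Ctbp2, was the lower of the pair.

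Rims1 was listed at 0 under both of its symbols. Of 25905 genes, 24.1% were listed at 0, and of those with 4 or more rows 32.7%. The table holds 21 symbols whose accessions are listed a second time in this way. Of these, 3 were at 0 in both places, Rims1, Myo3a and Pik3c2g, and Rims1 was the gene among the 21 with more than 1 transcript row. The level of Rims1 in the retina is therefore not given by this table, and the 0 was not read as absence of the transcript. The parts of the second listing and of the shared exons in the 0 were not tested.

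Among the scaffold genes with a single row, Rims2 was the more abundant. Rims2, which like Rims1 joins vesicles to the channels of the active zone, had a mean normalized count of 6234, above 99.7% of all genes listed. Bsn encodes Bassoon, which anchors the ribbon to the active zone. Its mean normalized count was 2916, above 98.8% of all genes. The transcript of Bsn is 15.9 kb long and that of Rims2 4.80 kb, so the gap between them was wider per length, with 1299 mean normalized counts per kb for Rims2 and 183 for Bsn. Bsn was the lowest of the 7 members with 1 row on the scale per kb, above 85.6% of 16702 genes with 1 row and a known length, whose median was 20.2 per kb.

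Pclo and Bsn are related scaffolds of similar size. The mean normalized count of Bsn was 2916 and that of Pclo 259, or 183 and 12.9 per kb of the longest counted transcript. Dividing the same count of Pclo by its 7.17 kb of unshared sequence gave 36.1 per kb, a value that would apply only if all counted reads lay there, which was not tested. Bsn has 1 row and Pclo 2, so the values stand side by side and no order was drawn from them. The same holds for Ctbp2, at 325 per kb of its longer transcript and 517 per kb when divided by its 2.27 kb of unshared sequence, beside its paralog Ctbp1 with 1 row at 436 per kb.

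**Figure D3:**
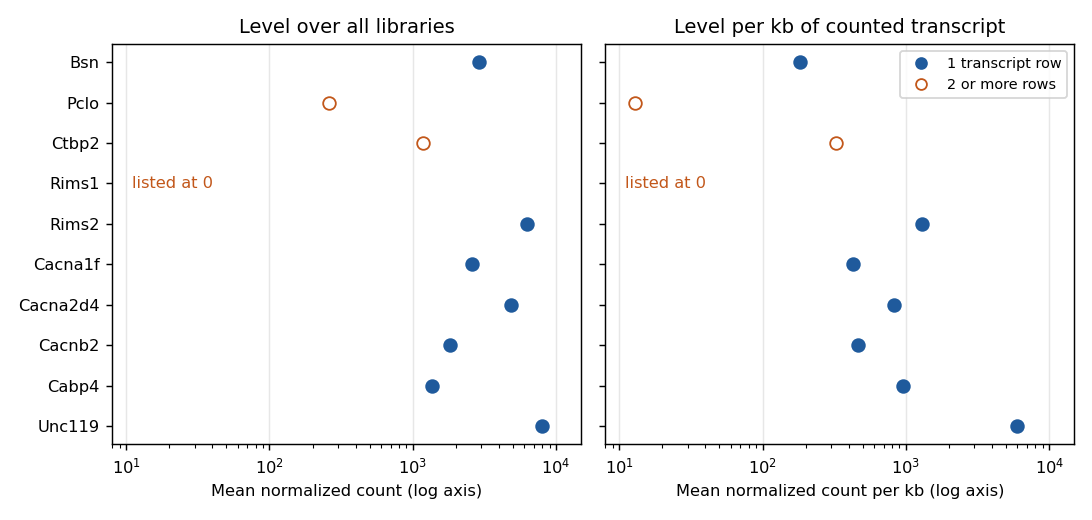
Mean normalized count over all libraries (left) and the same per kb of the longest counted transcript (right) for the 10 members, on log axes. Filled circles are the 7 members with 1 transcript row, between 1362 and 7982 on the left, and open circles the members with 2 rows, while Rims1 is listed at 0.

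All 3 genes of the calcium channel had a single row and were abundant. Cacna2d4, the auxiliary subunit that helps to place the channel at the synapse, was the highest, with a mean normalized count of 4823 and 831 per kb. Cacna1f encodes the pore of Cav1.4 and reached 2585, or 425 per kb. Cacnb2, the beta subunit that supports surface expression of the channel, reached 1831, or 464 per kb. Per kb of transcript, Cacna1f and Cacnb2 were close, with a ratio of 0.916, and Cacna2d4 was 1.95 times Cacna1f. These ratios depended on the length used. With the median length of the coding transcripts of each gene, Cacna2d4 was 1.00 times Cacna1f, and Cacna1f was 1.17 times Cacnb2. This median was 2.56 kb for Cacna1f, whose counted transcript has 6.08 kb.

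The regulators were the shortest transcripts among the members. Cabp4, a calcium-binding protein that shifts the opening of Cav1.4 to more negative potentials, had a mean normalized count of 1362, the lowest of the 7 members with 1 row. Its transcript is 1.43 kb long, which gave 951 per kb, above 98.1% of the genes with 1 row. Unc119, a lipid-binding trafficking protein that is enriched in photoreceptor inner segments and terminals, was the highest member on either scale. It had a mean normalized count of 7982, above 99.8% of all genes, and 6006 per kb. The 7 members with 1 row spanned a 5.86-fold range by mean normalized count and a 32.8-fold range per kb.

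The members have paralogs, several of which act at conventional synapses. Of the 18 paralogs compared, 9 had 1 row. These were Ctbp1, whose member Ctbp2 has 2 rows, and 8 that can be set beside a member with 1 row. In the pore subunits, Cacna1f at 425 per kb was 3.89 times Cacna1a at 109 per kb, the pore of P/Q-type channels. It was 50.3 times Cacna1e at 8.46 per kb, the pore of R-type channels. With the median length of coding transcripts, 2.56 kb for Cacna1f against 6.08 kb counted, these ratios were larger, at 8.85 and 77.9. In the auxiliary subunits, Cacna2d4 was 6.31 times Cacna2d3, which was at 132 per kb. With the median length this ratio was smaller, at 4.80. Rims2 was 172 times Rims4 at 7.55 per kb, and 12.3 times Rims3 at 105 per kb. The length of Rims3 was that of a short matched transcript of 0.977 kb, and the ratio was 83.9 with the median length of its coding transcripts.

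Among the calcium-binding proteins with 1 row, the ratios were smaller. Cabp4 was 1.98 times Cabp1 at 481 per kb and 2.50 times Cabp5 at 380 per kb, where Cabp5 is known from bipolar cells. With the median length of coding transcripts, the ratio to Cabp5 was smaller, at 2.14, and that to Cabp1 was unchanged. Cabp2, with 3 rows, had a mean normalized count of 3.90 and was not ordered against these genes. Unc119 was 85.5 times Unc119b at 70.2 per kb. The member was thus the highest of the single-row genes in each of these families, also with the median length of coding transcripts.

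The remaining channel paralogs had several rows. Of 11 channel paralogs, 8 had 2 or more rows, and the highest of these was Cacna1d with a mean normalized count of 34.4. The 3 with a single row, Cacna1a, Cacna1e and Cacna2d3, all lay at 126 or above. Cacna1c with 4 rows and Cacna2d2 with 5 rows were listed at 0, and Cacna2d1 with 5 rows was at 0.601. Cacna2d2 had no bases held by 1 transcript alone. Cacna1c and Cacna2d1 had 5.49 and 3.49 kb of them. Whether the unshared length has a part in these values was not tested. The other beta subunit genes, Cacnb1, Cacnb3 and Cacnb4, all had several rows and were at 13.8, 9.39 and 9.10, and the pore gene Cacna1b with 2 rows was at 6.26. So Cacnb2 had no paralog with 1 row, and its place in its family cannot be read from this table.

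**Figure D4:**
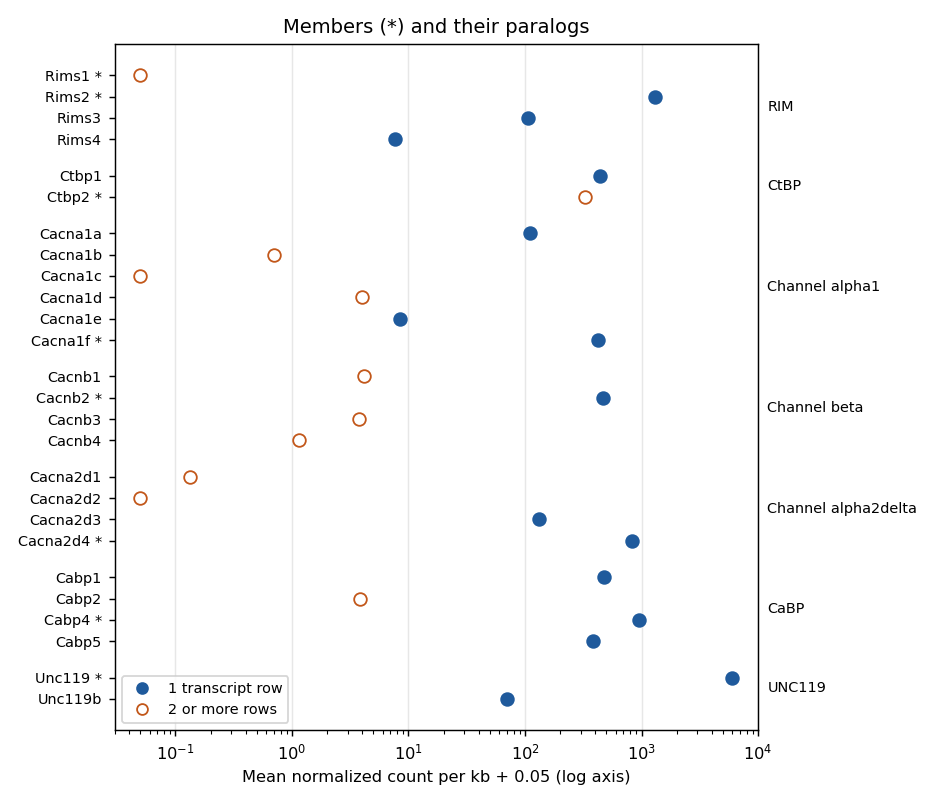
Mean normalized count per kb of the longest counted transcript (0.05 added, log axis) for members, marked with an asterisk, and their paralogs. Filled circles have 1 transcript row and open circles 2 or more; genes listed at 0 sit at the left edge, and within each family with a filled member that member is the rightmost filled circle.

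A list of 44 further genes of synaptic release, calcium channels and the photoreceptor terminal was set beside the members. All 44 were in the table, and 31 had 1 row, with a median of 1580 and a range of 37.5 to 24454. The median of the 7 members with 1 row was 2916, and that of all genes with 1 row 52.2. The 5 most abundant were Snap25 at 24454, Slc17a7 at 12273, Tulp1 at 11162, Syt1 at 10447 and Vamp2 at 9260. Slc17a7 encodes the vesicular glutamate transporter of photoreceptors and bipolar cells, and Tulp1 a photoreceptor protein needed for transport to the outer segment and the synapse. Unc119, at 7982, was below these 5. Cplx4 and Cplx3, the complexins of ribbon synapses, were at 5466 and 2500, near Cacna2d4 and Cacna1f by count.

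Partners of the members were measured at a range of levels. Arl3, a small GTPase that releases lipidated cargo from UNC119, was at 2816, and Arl2, a related GTPase, at 305. Erc2, an active zone scaffold that binds RIM proteins, was at 836. Unc13a, a vesicle priming factor, was at 1580 with 1 row, and Unc13b at 15.9 with 2 rows. Of the 44 genes, 13 had several rows, with a median of 9.39, and the highest of these was Erc1 at 326.

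The start of the ribbon-specific Ctbp2 transcript was examined for the letters TAATCC, the core of the sites of the photoreceptor factor CRX, on either strand. Promoter windows of 250 bases before a start were taken from RefSeq on GRCm38.p6 and were present for 7 members, with 11 windows in all. The letters were found in 2 of the 11 windows and in 6.25% of 32851 windows of the genome. The 2 windows belong to Ctbp2 and to the second of 3 starts of Unc119. The Ctbp2 window lies at chr7:133015248-133015497 on the minus strand, next to the start of NM_001170744.1, and is shown with the match in capitals, which reads on the opposite strand.

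Ctbp2, 250 bases before the start: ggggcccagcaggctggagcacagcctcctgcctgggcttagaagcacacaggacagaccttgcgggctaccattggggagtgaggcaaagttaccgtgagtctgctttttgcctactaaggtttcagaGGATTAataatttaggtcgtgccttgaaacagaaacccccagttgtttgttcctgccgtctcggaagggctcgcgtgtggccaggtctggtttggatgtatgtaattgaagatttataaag

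A match of letters is a description and not evidence of binding. The same letters were not found in the other member windows, which says nothing of the factor.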

How the data were processed

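Retinal RNA of 16 mice was sequenced by the authors as stranded single-end libraries. Reads were trimmed with Trimmomatic, mapped with TopHat2 to the mouse assembly NCBI build 37.2 and counted with HTSeq by the authors. The signal used here is the mean normalized count that the authors deposited for each gene, that is, counts divided by the size factors of DESeq2 1.22.2 (R 3.5.1) and averaged over all libraries. The deposited table also holds log2 fold-changes, standard errors, test statistics and p-values of the authors' own comparison, which were not used. The 2 deposited tables of counts per library hold 32 columns under laboratory codes that no label names, and these were left out. Only the accession and symbol of each transcript row were read from them. The planned test on counts per library could therefore not be run, and depth per library is not analysed here.

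Transcript lengths and exons came from GENCODE M21 on GRCm38, matched by RefSeq accession without its version. They are not the authors' annotation, and no position was compared with the mapping. A level per kb is the mean normalized count over the length of the longest counted transcript. Percentiles are shares of genes with a lower value. Named with values were all 10 members, their paralogs and the 5 most abundant genes of the companion list. Other genes named were picked after their values were seen. The members and lists were chosen with earlier results of these data known. The overlap and percentile functions were tested on simulated data. Computation ran in Python 3.11.15, with pandas 2.3.3 for the tables, numpy 2.4.6 and scipy 1.17.1 for the statistics and matplotlib 3.10.9 for the figures.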

Additional observations from a re-analysis of the deposited data

How the results depend on the processing

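Levels per kb depended on the length used. With the median length of the coding transcripts of each gene in place of the longest counted one, they were 249 for Bsn, 15.4 for Pclo, 1547 for Ctbp2, 1341 for Rims2, 1010.0 for Cacna1f, 1014 for Cacna2d4 and 865 for Cacnb2, and those of Cabp4 and Unc119 did not change. These medians took in all coding transcripts annotated for a gene, also short ones that were not counted. For Ctbp2 the median was 0.757 kb, below its counted transcripts of 3.60 and 2.32 kb, which raised its level per kb. Unc119, Rims2 and Bsn kept the first, second and last place among the 7 members with 1 row, and the 4 between them changed order. With only the unshared exon length, a choice made after seeing the data, they were 36.1 for Pclo and 517 for Ctbp2, and those of the 7 members with 1 row stayed as they were. Ranks among the 12374 genes with a mean normalized count of at least 10, in place of all genes, were percentiles of 97.5 for Bsn, 60.2 for Pclo, 90.6 for Ctbp2, 99.3 for Rims2, 97.1 for Cacna1f, 98.9 for Cacna2d4, 95.2 for Cacnb2, 92.6 for Cabp4 and 99.5 for Unc119. Among genes of like number of transcript rows, also a choice made after seeing the data, they were 98.3 for Bsn, 94.9 for Pclo, 99.3 for Ctbp2, 99.6 for Rims2, 98.0 for Cacna1f, 99.3 for Cacna2d4, 96.7 for Cacnb2, 94.9 for Cabp4 and 99.7 for Unc119. Rims1, listed at 0, was left out of these values.

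No paired analysis was possible because the columns of counts carry no mouse number or group. The alternatives planned for the comparison of the groups (other size factors, no filter on low counts, another tool, another threshold and the replicate number as a block) were not run for the same reason. No error of the means over all libraries was computed, so that close levels, such as those of Cacna1f and Cacnb2, were not ordered. A low value of a gene with several transcript rows does not show a low level of its RNA.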

Other observations

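Most of the cell type markers with several transcript rows were lower than markers of the same cells with 1 row. Low values also occurred with 1 row, as for Best1 of the pigment epithelium at 2.72 and Aif1 of microglia at 4.08. Nrl, the transcription factor that sets rod fate, had 2 rows and a mean normalized count of 88.9, while Nr2e3, which acts beside it in rods, had 1 row and 3390. Rlbp1, the retinoid-binding protein of Müller glia, had 2 rows and was at 1.39, while Glul, the glutamine synthetase of the same cells, had 1 row and 17455. Rbpms, a marker of ganglion cells, had 3 rows and was at 5.53, while Thy1 and Sncg, also known from these cells, had 1 row and were at 1730 and 693. Pecam1, a marker of endothelium, had 2 rows and was at 0.446, and Cdh5 and Cldn5 had 1 row and were at 99.5 and 51.1. The exception among the markers with several rows was Trpm1, the channel of ON bipolar cells. It had 2 rows and was at 2866, above 3 of the 4 bipolar markers with 1 row. Trpm1 had 5.06 kb of exon sequence in 1 transcript alone. Nrl, Rlbp1, Rbpms and Pecam1 had 0.082, 0.172, 0.371 and 0.064 kb. The channel paralogs Cacna1c and Cacna2d1 had 5.49 and 3.49 kb and were at 0 and 0.601. The genes named here were picked after their values were seen. Whether the number of rows or the unshared length acts on the levels was not tested.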
